A study of Mus musculus with 11 samples.

Results

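The T cell receptor (TCR) alpha variable gene segments, whose mouse symbols start with Trav, were followed through thymus RNA-seq libraries. Members were all rows of the deposited gene-level count table whose identifier carries a Trav symbol in the GENCODE M21 annotation of GRCm38. Of 128 annotated Trav segments, 111 were rows of the table, out of 54418 rows in all, and 17 were not. Each of those 17 has a transcript identical in sequence to that of a segment that is in the table, so a row can stand for a pair of places in the genome.

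RNA came from thymocytes, taken as a cell suspension of the whole thymus from mice aged 8 to 12 weeks on a C57BL/6-WEHI background. There were 4 wt mice, 4 Zmat3-/- mice lacking the RNA-binding protein ZMAT3, and 3 Puma-/-p21-/-Zmat3-/- mice (triple knockout, TKO), which also lack the pro-apoptotic protein PUMA (gene Bbc3) and the cell cycle inhibitor p21 (gene Cdkn1a). All 3 genes are targets of the tumour suppressor TRP53, and the losses are germline, so every thymic cell type carried them. The TKO line was bred by intercrossing Zmat3-/- with Puma-/-p21-/- mice, and whether the wt mice were littermates was not stated in the sources used here.

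Trav14d-3-dv8 was the 1 member called by the main edgeR test in either comparison with wt, and DESeq2 called 2 in each. It passed the filter on low counts through the mutant mice alone, and its call was lost when any 1 mutant mouse was left out. Trav14d-3-dv8 lies in a run of 11 neighbouring segments, picked out after the values were seen. These segments were at 0 or low in the 4 wt mice and mostly counted in the 7 mutant mice. The summed Trav level overlapped between the genotypes. The proximal share of the counts was lower in all 3 TKO mice than in all 4 wt mice, with a difference of means of -5.52 percentage points. Without rows that have an identical transcript elsewhere in the locus it was -2.85. The summed level of segments without a copy letter (d or n), which include the whole proximal span, overlapped between wt and TKO mice.

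A TCR alpha chain is built when RAG1 and RAG2 join a variable segment to a joining segment (Traj), which is then spliced to the constant gene Trac. Double positive thymocytes repeat this on the same chromosome: early joins use Trav segments near the Traj cluster (proximal), and later joins reach segments farther away (distal), for as long as the cell survives. The mouse locus contains a stretch of the Trav array in extra copies, whose segments carry the letter d or n after the family number, and several segments (named with dv) also serve the TCR delta chain.

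All Trav segments lie on the plus strand of chromosome 14, between positions 52427928 and 53977678 of GRCm38. Their starts are 243 to 1793 kb upstream of the start of Trac (chr14:54220521-54224206). The array was divided into 3 spans of equal length: 32 rows fell in the distal span, 38 in the central span and 41 in the proximal span, which is nearest to Trac. The 111 rows belonged to 23 families; 33 carried the letter d, 24 the letter n and 54 neither, 9 were named dv and 18 were annotated as pseudogenes. Exon length was 155 to 595 bases, with a median of 361.

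How well reads can tell the copies apart limits every value below. Each transcript was cut into overlapping words of 31 bases. In the median row 31.8% of the words were found in no other transcript, 25 rows had no word of their own and 9 had only words of their own. The following stretches of 120 bases, from GENCODE M21 transcripts and read 5′ to 3′ on the plus strand, show how small the differences are for segments that carried the results. Capitals mark the bases that differ within each pair.

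Trav14d-3-dv8: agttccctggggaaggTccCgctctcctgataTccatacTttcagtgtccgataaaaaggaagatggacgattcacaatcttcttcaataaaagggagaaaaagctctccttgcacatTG
Trav14-3: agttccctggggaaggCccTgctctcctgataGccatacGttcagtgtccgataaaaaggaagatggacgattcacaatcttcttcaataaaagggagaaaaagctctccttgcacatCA

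These lie at chr14:53078878-53078997 and chr14:53763527-53763646, within the variable exon. Trav14d-3-dv8 and Trav14-3, the segment with which it shares most words, differ at 12 of 384 aligned bases, and 35.0% of the words of Trav14d-3-dv8 are its own.

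Trav16d-dv11: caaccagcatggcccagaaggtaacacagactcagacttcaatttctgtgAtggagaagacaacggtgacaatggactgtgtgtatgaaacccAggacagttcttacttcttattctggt
Trav16n: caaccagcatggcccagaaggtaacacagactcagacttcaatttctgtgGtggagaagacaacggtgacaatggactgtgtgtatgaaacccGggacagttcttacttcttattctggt

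These lie at chr14:53047521-53047640 and chr14:53351321-53351440. Trav16d-dv11 and Trav16n differ at 6 of 350 aligned bases, and Trav16d-dv11 is shown because it was counted in every mutant mouse and in no wt mouse.

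Trav10n: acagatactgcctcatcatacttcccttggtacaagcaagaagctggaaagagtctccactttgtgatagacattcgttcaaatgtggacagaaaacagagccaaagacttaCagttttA
Trav10d: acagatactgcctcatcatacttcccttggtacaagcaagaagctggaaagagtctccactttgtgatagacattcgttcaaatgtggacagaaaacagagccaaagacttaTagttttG

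These lie at chr14:53122406-53122525 and chr14:52811292-52811411. Trav10n and Trav10d differ at 3 of 343 aligned bases, and Trav10n had the same pattern as Trav16d-dv11. For a further pair, the segment of the invariant natural killer T (NKT) cell receptor, no base differs at all.

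Trav11 and Trav11d: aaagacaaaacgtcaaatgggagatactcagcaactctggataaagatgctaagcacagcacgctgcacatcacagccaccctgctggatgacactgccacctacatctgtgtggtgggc

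The same letters stand at chr14:53519739-53519858 and at chr14:52824793-52824912. The transcripts of Trav11 and Trav11d are identical over all 342 aligned bases and differ in length by a final base. In Trav11 the table listed 46, 94, 58 and 0 counts in wt mice 1 to 4, and in Trav11d 0, 0, 0 and 57. Zmat3-/- mouse 2 likewise had 0 in Trav11 and 72 in Trav11d, and in every other mouse Trav11d was at 0. The pair was therefore summed. Its level was 1.39 to 2.44 CPM (counts scaled per library, with TMM factors) in wt, 1.48 to 3.01 CPM in Zmat3-/- and 1.86 to 2.52 CPM in TKO mice, and all 3 ranges overlapped. Trav7-2 and Trav7d-2 exchanged their counts in the same way: all of them stood in Trav7-2 in wt mice 1 and 3 and TKO mouse 2 (73, 71 and 65 counts), and in Trav7d-2 in the other 8 mice.

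The libraries held 17669715 to 80207003 counts, of which Trav rows took 0.0102 to 0.0190%. Zmat3 was counted at 9.81 to 27.4 CPM in wt mice and at 5.33 to 8.13 CPM in the 7 knockout mice, with no overlap, and Cdkn1a in TKO mice was below every wt mouse. Bbc3 was 11.9 to 15.8 CPM in TKO and 17.0 to 19.8 CPM in wt mice. The double positive markers were high in every library, with Cd4 at 968 to 1320 CPM, Cd8a at 1506 to 2059 CPM and Rag1 at 1592 to 5607 CPM. Wt mice 1 and 2 stood apart from the other libraries: Rag1 was 1592 and 2209 CPM in them and 3839 to 5607 CPM in the other 9 mice, and Trac was 596 and 563 CPM against 324 to 393 CPM. Xist was high in 5 mice (numbers 1 and 2 of wt and of Zmat3-/-, and number 1 of TKO) and low in 6, and the labels give no sex. The summed Trav level, its ratio to Trac, the log2FC of Trac, the median log2FCs and the proximal share are also given without wt mice 1 and 2. Other sums, other shares and the mean distance are not.

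The summed Trav level overlapped between genotypes. Wt mice 1 to 4 had 105, 148, 168 and 161 CPM, with a mean of 145.7 ± 28.3 CPM (SD, n = 4). The Zmat3-/- mice had 155, 152, 163 and 192 CPM (165.5 ± 18.4 CPM, SD, n = 4), and the TKO mice had 181, 163 and 186 CPM (176.8 ± 11.9 CPM, SD, n = 3). The mean was 1.14-fold that of wt in Zmat3-/- and 1.21-fold in TKO mice, the groups overlapped in both comparisons, and wt mouse 1 was the lowest library. On the log2 scale the differences from wt were 0.20 in Zmat3-/- and 0.30 in TKO mice. Without wt mouse 1 they were 0.05 and 0.15, and without wt mice 1 and 2 they were 4.83e-05 and 0.0993. In bulk tissue, fewer cells carrying a given join and less RNA per cell cannot be told apart.

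Set against the constant gene, the Trav sum separated 2 of the wt mice from all other mice. Trac encodes the part shared by all alpha chains, and germline or partly processed Trac transcripts count towards it too. There were 17.6, 26.3, 49.3 and 49.8 Trav counts per 100 Trac counts in wt mice 1 to 4, between 42.9 and 50.8 in Zmat3-/- and between 43.7 and 50.5 in TKO mice. The low ratios of wt mice 1 and 2 went with their high Trac levels. With all mice, the mean log2 ratio was 0.55 higher in Zmat3-/- and 0.53 higher in TKO than in wt mice; without wt mice 1 and 2 these differences were -0.05 and -0.07.

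**Figure D1:**
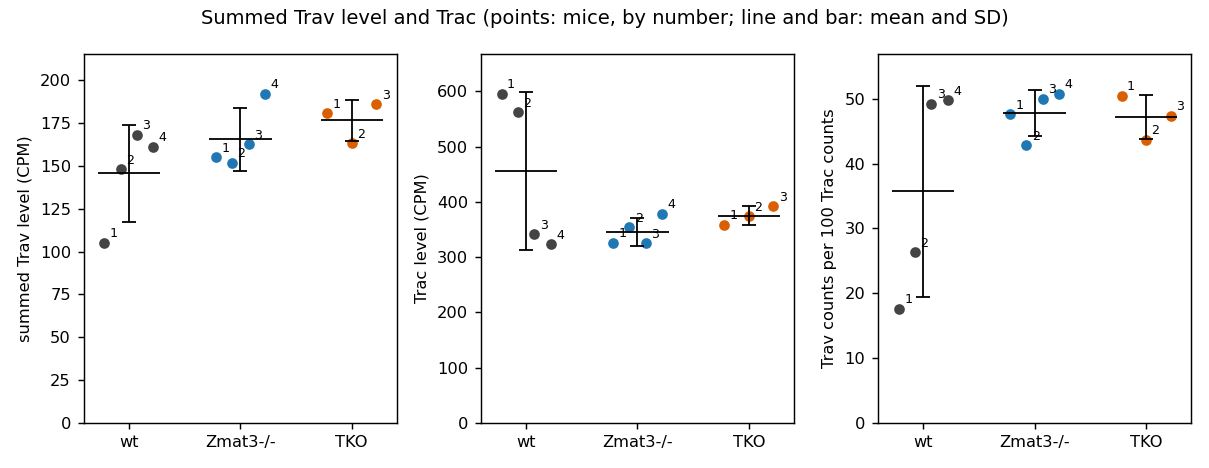
Summed Trav level (CPM, left), Trac level (CPM, middle) and Trav counts per 100 Trac counts (right) in wt, Zmat3-/- and TKO mice; points are mice with their number, the horizontal line is the mean and the bar is the SD. Wt mice 1 and 2 have Trac levels of 596 and 563 CPM and the lowest ratios, 17.6 and 26.3, while the summed Trav level overlaps in all 3 groups.

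Levels of different segments can be compared only per length. On that scale the highest segments were Trav14d-1, Trav14n-2, Trav6-3, Trav3d-3, Trav14-1 and Trav6d-6, with a mean of 10.6 to 12.1 CPM per kb of exon over the 11 mice. Of these 6 rows, 4 stand for a pair of identical transcripts, Trav14d-1 and Trav14n-1 for example, which adds 2 segments into 1 value. Trav14-1, with 67.5% of its words its own, was at 10.2 ± 4.76 (SD, n = 4) CPM per kb in wt, 10.6 ± 1.26 (SD, n = 4) in Zmat3-/- and 11.7 ± 1.04 (SD, n = 3) in TKO mice. The SDs of these 6 segments within groups were 0.974 to 4.76 CPM per kb, so their order is not resolved.

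Both ends of the array were in use. Trav1, the first segment of the locus at 1793 kb from Trac and the one in the invariant receptor of mucosal-associated invariant T (MAIT) cells, was at 0.815 to 1.77 CPM in wt, 1.33 to 2.76 CPM in Zmat3-/- and 1.62 to 3.00 CPM in TKO mice, with overlapping groups. Trav21-dv12, the segment nearest to Trac that passed the filter on low counts, at 344.5 kb, was at 2.05 to 3.29 CPM, 1.84 to 2.53 CPM and 1.88 to 3.18 CPM in the same order. All words of these 2 segments are their own.

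The families of largest mean share of the Trav counts were Trav6 (14.4%), Trav14 (13.8%), Trav9 (11.4%), Trav7 (10.6%), Trav12 (8.77%) and Trav13 (7.57%). Family sums do not depend on how reads were split among copies of a segment within a family. Trav6 took 15.5 ± 2.28% (SD, n = 4) of the counts in wt, 14.4 ± 1.33% (SD, n = 4) in Zmat3-/- and 12.9 ± 0.472% (SD, n = 3) in TKO mice. Trav14 took 12.9 ± 0.577%, 13.9 ± 0.314% and 14.7 ± 1.40% (SD, n = 4, 4 and 3). With each family summed to 1 row, 18 or 19 families were tested per comparison and none was called at an adjusted p under 0.05 by edgeR's quasi-likelihood test, against 0.758%, 0.288% and 0.222% of all rows in Zmat3-/- against wt, TKO against wt and TKO against Zmat3-/-. At an unadjusted p under 0.05 there were 1 (Trav9), 0 and 0 families in the same order, against 16.1%, 10.3% and 4.47% of all rows.

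The question of position, whether mutant thymocytes used distal segments more, was described by the share of a mouse's Trav counts in each span of the array. In the proximal span the share was 47.9, 44.1, 49.9 and 44.5% in wt mice 1 to 4, 41.9, 45.7, 43.4 and 42.6% in the Zmat3-/- mice and 39.1, 42.8 and 41.4% in the TKO mice. All 3 TKO mice were below all 4 wt mice, with a difference of means of -5.52 percentage points (TKO minus wt), and the Zmat3-/- mice overlapped both. The distal share was 25.3 ± 2.91% (SD, n = 4) in wt, 26.5 ± 0.670% (SD, n = 4) in Zmat3-/- and 26.3 ± 1.16% (SD, n = 3) in TKO mice, 0.976 percentage points above wt, with overlapping groups. The central share was higher by 4.54 percentage points in TKO than in wt mice, at 27.4 to 28.5% of the counts in wt, 27.3 to 32.1% of them in Zmat3-/- and 32.1 to 33.5% of them in TKO mice, where TKO and wt did not overlap. Part of this difference came from 1 run of 11 central segments (from Trav8d-2 to Trav11n), which took 0.462% of the Trav counts in wt and 3.48% in TKO mice. Without the run, a calculation added after the data were seen, the central share ranged over 27.2 to 28.1% for wt mice, over 25.7 to 30.3% for Zmat3-/- mice and over 29.1 to 30.9% for TKO mice. The difference between TKO and wt was then 2.44 percentage points in the central span, 1.82 in the distal span and -4.26 in the proximal span. Trav7-2 (central) and Trav7d-2 (distal), and Trav11 (proximal) and Trav11d (distal), exchange counts between spans. With all counts of each pair placed in one of its rows, another calculation added after the data were seen, TKO differed from wt by 4.74 or 4.78 percentage points in the central, 0.896 or 1.09 in the distal and -5.63 or -5.86 in the proximal span, and the groups overlapped in the distal span alone.

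The count-weighted mean distance to Trac was 896.9 ± 29.4 kb (SD, n = 4) in wt, 923.5 ± 6.37 kb (SD, n = 4) in Zmat3-/- and 933.0 ± 16.9 kb (SD, n = 3) in TKO mice, and all groups overlapped. With the exchanging pairs placed in one row each, the wt range was 887.6 to 930.4 kb and the TKO range 940.0 to 957.3 kb (rows with the letter d), or 864.9 to 909.5 kb and 915.8 to 941.1 kb (rows with no letter), without overlap. As deposited, the differences from wt were 26.6 kb in Zmat3-/- and 36.1 kb in TKO mice; they were 16 and 25.4 kb without wt mouse 3, 13.0 and 14.3 kb without rows that have an identical transcript elsewhere, and 5.95 and 14.7 kb without rows in which under 20% of the words are their own. When rows with an identical transcript elsewhere in the locus were left out, an alternative chosen after the data were seen, the gap in proximal share was -1.18 percentage points for Zmat3-/- (-3.23 with all rows) and -2.85 for TKO against wt. Without wt mouse 3 these gaps were -2.13 and -4.42. Of the 17 annotated segments not in the table, 14 lie in the central span, 2 in the distal span and 1 in the proximal span, so some counts placed in one span may belong to another. Without wt mice 1 and 2 the gaps in proximal share were -3.84 percentage points for Zmat3-/- and -6.13 for TKO against wt.

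**Figure D2:**
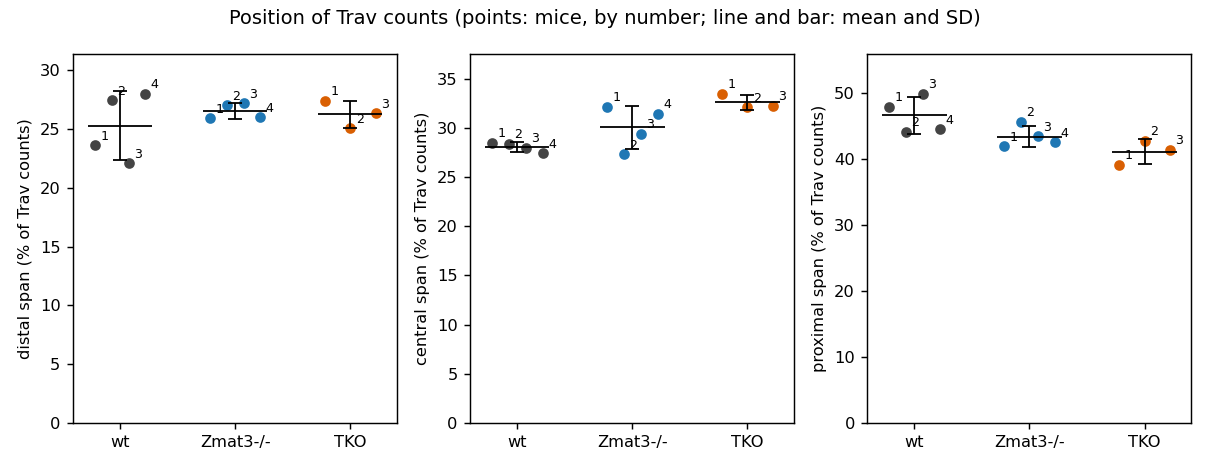
Share of a mouse's Trav counts (%) in the distal, central and proximal span of the Trav array, by genotype; points are mice with their number, the horizontal line is the mean and the bar is the SD. The 3 TKO mice lie above all wt mice in the central span (32.1 to 33.5% against 27.4 to 28.5%) and below them in the proximal span, while the distal shares overlap.

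Inside the central span, 1 contiguous run of segments was nearly silent in the wt mice and counted in the mutants. It spans chr14:53042428-53135678, 93.3 kb from Trav8d-2 to Trav11n, and was picked out after its values were seen, so that its values are a description. All 11 annotated segments of the run were rows of the table. Of these, 9 had no count in any of the 4 wt mice: Trav8d-2, Trav16d-dv11, Trav13d-4, Trav15d-3, Trav7n-4, Trav9n-1, Trav6n-5, Trav10n and Trav11n. Of the 11 rows, 7 were counted in every one of the 7 mutant mice.

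Trav16d-dv11 had 0 counts in each wt mouse, 16, 11, 8 and 10 counts in Zmat3-/- mice 1 to 4, and 25, 6 and 69 counts in TKO mice 1 to 3. Trav8d-2 had 0 counts in each wt mouse, 16, 4, 4 and 3 counts in the Zmat3-/- mice and 18, 4 and 38 counts in the TKO mice. Trav10n had 0 counts in each wt mouse, 7, 6, 6 and 8 counts in the Zmat3-/- mice and 33, 2 and 66 counts in the TKO mice. All mutant mice had counts and no wt mouse did, although the shallowest library was that of TKO mouse 2 (17669715 counts) and the wt libraries held 22375732 to 39510054 counts.

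A count of 0 allows up to 3 counts, which is 0.0734 to 0.126 CPM in the wt libraries and 0.102 CPM on average. Against that average, Trav16d-dv11 was at least 3.48-fold higher in Zmat3-/- (0.355 ± 0.0640 CPM, SD, n = 4) and at least 5.97-fold higher in TKO mice (0.609 ± 0.249 CPM, SD, n = 3). On the means, Trav10n was 2.19-fold and 5.76-fold that average, and Trav8d-2 1.88-fold and 3.77-fold. TKO mouse 2 was at 0.116 CPM in Trav10n, under the highest wt limit, and the lowest Zmat3-/- mouse was not above it in Trav8d-2 (0.126 CPM). All these folds bound the wt side only and do not cover the spread between mutant mice. Trav11n, Trav9n-1 and Trav6n-5 were at or under this limit on average in Zmat3-/- mice, where no fold is given, and Trav15d-3 had at most 2 counts in any mouse.

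The remaining members of the run had low counts in wt mice. Whether these counts came from the segments themselves or from similar ones was not tested. Trav14d-3-dv8 had 15, 20, 10 and 8 counts in the wt mice, 65, 57, 47 and 45 counts in the Zmat3-/- mice and 105, 29 and 291 counts in the TKO mice. In level this was 0.315 to 0.489 CPM in wt, 1.53 to 1.89 CPM in Zmat3-/- and 1.68 to 3.56 CPM in TKO mice, without overlap between wt and either mutant group. Trav6n-6, which shares 44.2% of its words with Trav6-6, was at 0.0978 to 0.379 CPM in wt, 0.401 to 0.941 CPM in Zmat3-/- and 0.464 to 1.23 CPM in TKO mice, again without overlap between wt and mutants.

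Summed, the run was at 0.694, 0.587, 0.801 and 0.512 CPM in wt mice 1 to 4, 4.14, 3.28, 3.04 and 4.02 CPM in the Zmat3-/- mice and 6.81, 3.71 and 8.20 CPM in the TKO mice. Its mean was 5.58-fold that of wt in Zmat3-/- and 9.62-fold in TKO mice, and the Zmat3-/- and TKO ranges overlapped. The gap was present within the high-Xist mice and within the low-Xist mice, and wt mice 3 and 4 were as low as wt mice 1 and 2.

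Over the whole table, 13 of 30647 genes with a count in any mouse (0.0424%) were at 0 in every wt mouse and counted in every mutant mouse. Of these 13 genes, 5 were Trav segments of the run: Trav8d-2, Trav16d-dv11, Trav13d-4, Trav7n-4 and Trav10n. Counted means at least 1 count here, and some values lay within the limit of 3 counts. Trav13d-4 had 2 and 1 counts in Zmat3-/- mice 2 and 3, Trav7n-4 had 2 and 3 in Zmat3-/- mice 2 and 4, and Trav10n had 2 in TKO mouse 2. Of the 5, only Trav16d-dv11 was above the highest wt limit in every mutant mouse. In the opposite direction, at 0 in every mutant and counted in every wt mouse, there were 2 genes and no Trav segment. Outside the run, Trav9d-4, at 52983201 to the distal side, was also at 0 in every wt mouse, with 6, 3, 21 and 14 counts in Zmat3-/- and 53, 0 and 82 counts in TKO mice; only 6.5% of its words are its own.

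The nearest rows on either side were counted in wt mice. Trav13d-3, the row next to the run on the distal side, had 11, 26, 19 and 25 counts in wt mice 1 to 4, and Trav13n-1, the next row in the table on the proximal side, had 21, 22, 14 and 27. Only 10.3% of the words of Trav13n-1 are its own. Between the run and Trav13n-1 lie Trav7n-5 and Trav12n-1, which are not in the table. Their transcripts are identical to those of Trav7d-5 and Trav12d-1, so the proximal edge of the run cannot be placed. Trav13d-3 overlaps the antisense gene Gm30214, and the library kit does not mark strand, so their reads cannot be told apart. No word of Trav13d-3 is its own. Gm30214 itself (chr14:53032417-53039466) had 1, 5, 9 and 4 counts in wt, 21, 8, 9 and 14 in Zmat3-/- and 33, 3 and 56 in TKO mice. Genomic DNA of these mice was not analysed here, and whether the wt and mutant lines carry the same sequence over the run was not tested.

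**Figure D3:**
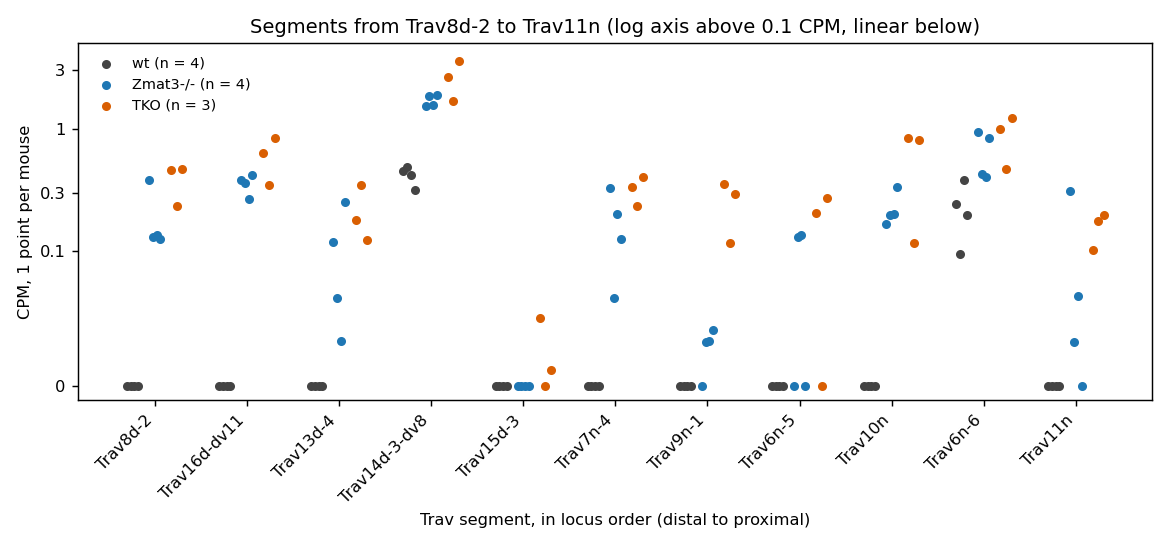
Level (CPM) of the 11 segments from Trav8d-2 to Trav11n, in locus order, with 1 point per mouse; the vertical axis is logarithmic above 0.1 CPM and linear below. The 4 wt mice (dark points) are at 0 in 9 of the 11 segments and below every mutant mouse in Trav14d-3-dv8 and Trav6n-6.

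**Figure D4:**
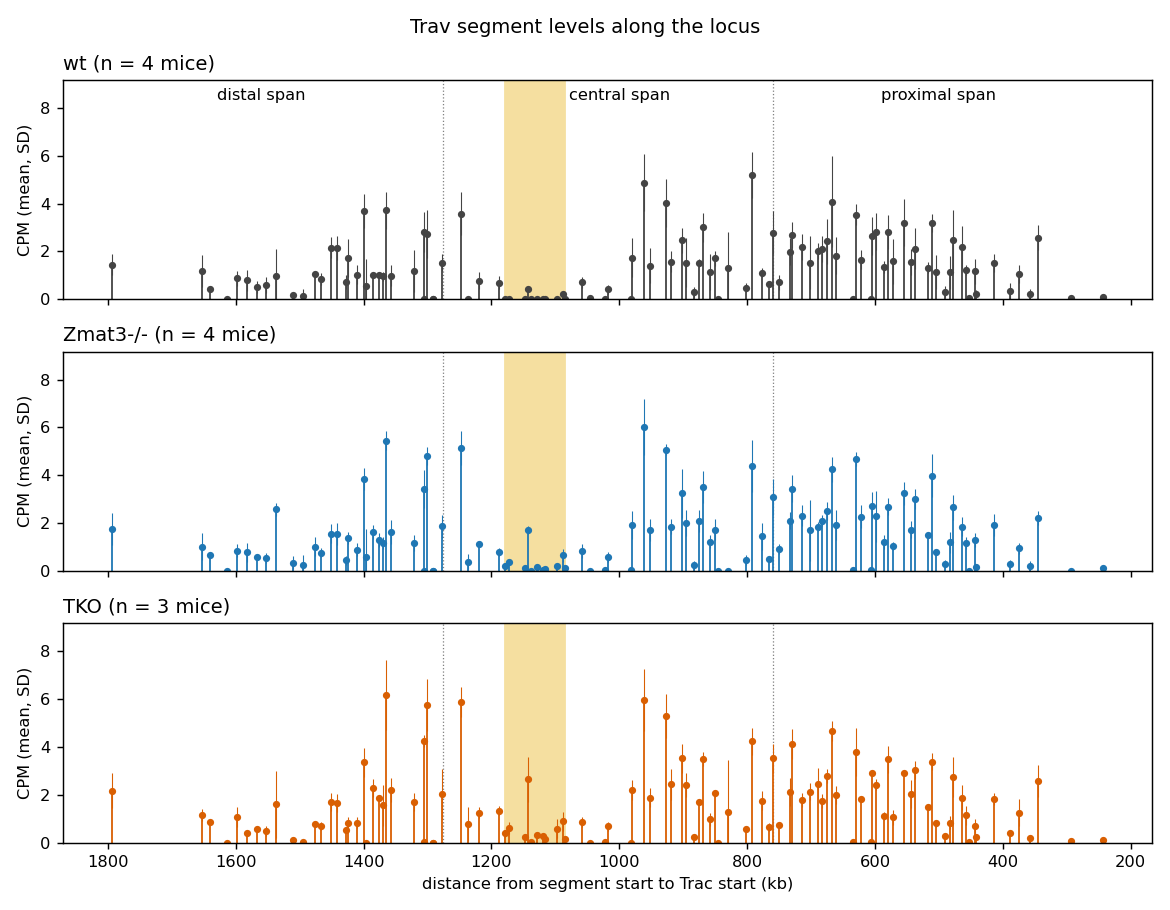
Mean level (CPM, bar is SD) of each Trav segment against its distance to Trac (kb) in wt, Zmat3-/- and TKO mice; dotted lines divide the spans and the shaded band is the run from Trav8d-2 to Trav11n. The band is nearly empty in wt mice, and the nearest rows of the table on its flanks are counted in all 3 groups.

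Across all members, edgeR's quasi-likelihood test was fitted on the whole table for each pair of genotypes. A filter on low counts (20 counts at the depth of the smallest library, in a number of mice equal to the smaller group) passed 63, 62 and 61 members in Zmat3-/- against wt, TKO against wt and TKO against Zmat3-/-. In all, 66 members passed in at least 1 comparison and 45 in none, among them 10 of the 11 segments of the run. In 1, 3 and 4 of the tested members, no mouse of one of the groups reached the count limit (0.371%, 1.00% and 0.366% of all genes tested), so that they passed through the group where they are high. Trav14d-3-dv8 was among them in both comparisons with wt, Trav6d-5 and Trav13d-3 in both comparisons with TKO, and Trav3-4 and Trav8-2 in TKO against Zmat3-/-. The 2 comparisons with wt share the 4 wt mice, so similar results in them are not independent.

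In Zmat3-/- against wt, 1 member was called at an adjusted p under 0.05, against 0.763% of all 13494 genes tested. It was Trav14d-3-dv8, with a log2FC of 2.01 (SE 0.243) and an adjusted p of 0.0138 by edgeR's quasi-likelihood test with Benjamini-Hochberg adjustment. No wt mouse reached the count limit, so it was tested because it was high in Zmat3-/- mice, and without the filter its adjusted p was 0.0534 by edgeR. It also passed the study's fold limit (absolute log2FC above 1.5), as did 0.319% of all genes. The direction held in all 16 alternatives run, with a log2FC of 1.89 to 2.21. The adjusted p ranged from 3.07e-08 to 0.137 and the call was lost when any 1 of the 4 Zmat3-/- mice was left out. It was also lost without the filter and with the replicate numbers as a block. In TKO against wt, Trav14d-3-dv8 was again the 1 member called, against 0.294% of 13260 genes (0.241% with the fold limit). Its log2FC was 2.63 (SE 0.361) and its adjusted p 0.0354 by the same edgeR test. Here too it passed the filter through the TKO mice alone; without the filter its adjusted p was 0.0299 by edgeR. The call was lost whichever mouse was left out, with adjusted p from 0.0743 to 0.277, while the log2FC stayed between 2.37 and 2.86. It was also lost with the replicate numbers as a block and with the Xist level in the model.

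In TKO against Zmat3-/- no member was called by edgeR or by DESeq2, against 0.221% of 13124 genes by edgeR (0.122% with the fold limit) and 0.556% by DESeq2. At an unadjusted p under 0.05 there were 4 members by edgeR, against 4.49% of all genes, and 3 by DESeq2, against 4.69% of them. The lowest, Trav6d-5, had a log2FC of -0.87 (SE 0.315), with an adjusted p of 0.983 by edgeR.

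With all 4 wt mice, most members had a log2FC above 0 in the mutants. This rested largely on wt mouse 1 in Zmat3-/- against wt, and on wt mice 1 and 2 together in TKO against wt. The median log2FC of the tested members was 0.15 in Zmat3-/- against wt (all genes -0.03), with 48 of 63 above 0, and 0.26 in TKO against wt (all genes -0.04), with 45 of 62 above 0. Without wt mouse 1 the medians were -0.03 (32 of 68 above 0) and 0.15 (39 of 61), and without wt mice 1 and 2 they were -0.03 (34 of 72) and 0.05 (38 of 67). Without wt mouse 2 alone they were 0.19 (40 of 64) and 0.24 (44 of 60). At an unadjusted p under 0.05 there were 6 members (9.52%) in Zmat3-/- against wt, against 16.1% of all genes, and 9 members (14.5%) in TKO against wt, against 10.3% of all genes. DESeq2 called 2 members in each comparison with wt at an adjusted p under 0.05, against 8.04% and 2.87% of all genes in Zmat3-/- and TKO, and at an unadjusted p under 0.05 it had 6 and 10 members, against 19.6% and 13.2% of all genes. Beside Trav14d-3-dv8, the members it called were Trav14d-1 in Zmat3-/- (adjusted p 0.0431) and Trav7d-5 in TKO mice (adjusted p 0.0103). In CPM, 8 of 63 members lay higher in every Zmat3-/- mouse than in every wt mouse (7.04% of all genes did) and 0 lower (6.91%). In TKO against wt 10 of 62 lay higher (6.78% of all genes) and 1 lower (7.02%), and in TKO against Zmat3-/- 2 of 61 lay higher (3.21%) and 2 lower (2.44%).

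Tested members were also described by whether an identical copy stands elsewhere in the locus. Of the tested members, 15 share an identical transcript with another segment. That segment is not in the table, except for Trav15n-1, the copy of Trav15d-1-dv6d-1. The median log2FC of the 15 was 0.33 in Zmat3-/- against wt and 0.62 in TKO against wt. Of them, 15 of 15 and 14 of 15 were above 0, the exception being Trav6d-6 (-0.16). The 48 and 47 tested members without such a copy had medians of 0.10 and 0.15. Without wt mice 1 and 2 the medians were 0.15 and 0.40 for members with such a copy (13 and 12 of 15 above 0) and -0.14 and -0.01 for those without. Summed, the rows with an identical copy were at 23.7 to 37.9 CPM in wt, 38.8 to 52.2 CPM in Zmat3-/- and 43.3 to 55.4 CPM in TKO mice, without overlap between wt and the mutants. Rows without such a copy, outside the run, were at 80.7 to 130 CPM, 109 to 136 CPM and 116 to 123 CPM, which overlapped. This grouping was made after the values were seen, and no test was run on it.

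Among the single segments with an identical copy, Trav7d-5 (copy Trav7n-5) was at 0.936, 1.03, 0.969 and 1.10 CPM in wt, 1.48, 1.33, 2.04 and 1.68 CPM in Zmat3-/- and 2.51, 2.50 and 1.87 CPM in TKO mice, and no mutant mouse was as low as any wt mouse. Its log2FC in TKO against wt was 1.17 (SE 0.276), with an adjusted p of 0.236 by edgeR. It was called by DESeq2 (adjusted p 0.0103), with 1 surrogate variable (0.0236, edgeR) and with all 11 mice in one edgeR fit (0.0374), against 2.87%, 17.9% and 1.63% of all genes. It passed the filter through the TKO mice, since 3 of 3 of them and 1 of 4 wt mice reached the count limit. Its adjusted p was 0.359 to 0.811 by edgeR with 1 mouse left out. Trav9d-3 (copy Trav9n-3) was at 1.69 to 3.78 CPM in wt, 4.28 to 5.14 CPM in Zmat3-/- and 4.58 to 6.73 CPM in TKO mice; its log2FC in Zmat3-/- against wt was 0.81 (SE 0.271), with an adjusted p of 0.197 by edgeR, and of 0.0237 with 1 surrogate variable, which called 37.8% of all genes. Trav15d-1-dv6d-1 (copy Trav15n-1) had a log2FC of 1.16 (SE 0.469) in TKO against wt, with an adjusted p of 0.457 by edgeR, from 0.332 to 1.26 CPM in wt to 1.68 to 2.69 CPM in TKO mice. Its copy is a row of its own, with 5 counts in wt mouse 1, where Trav15d-1-dv6d-1 had 11, and 0 in every other mouse. The pair was not summed.

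Trav7d-2 had a log2FC of 1.38 (SE 1.08) in Zmat3-/- against wt, but this is the row that exchanged counts with Trav7-2; the sum of the pair was 1.77 to 2.99 CPM in wt and 2.26 to 2.91 CPM in Zmat3-/- mice, which overlapped. Trav6d-5, a distal segment with 40.9% of its words its own, was the member that lay lower in every TKO mouse, at 0.584 to 1.10 CPM against 1.15 to 2.87 CPM in wt. Its log2FC was -1.14 (SE 0.449), with an adjusted p of 0.447 by edgeR. Between the mutant lines, Trav13d-3 had a log2FC of 0.73, Trav12d-1 of 0.53 and the proximal Trav3-4 of -0.86 in TKO against Zmat3-/-, each with an adjusted p of 0.983 by edgeR.

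**Figure D5:**
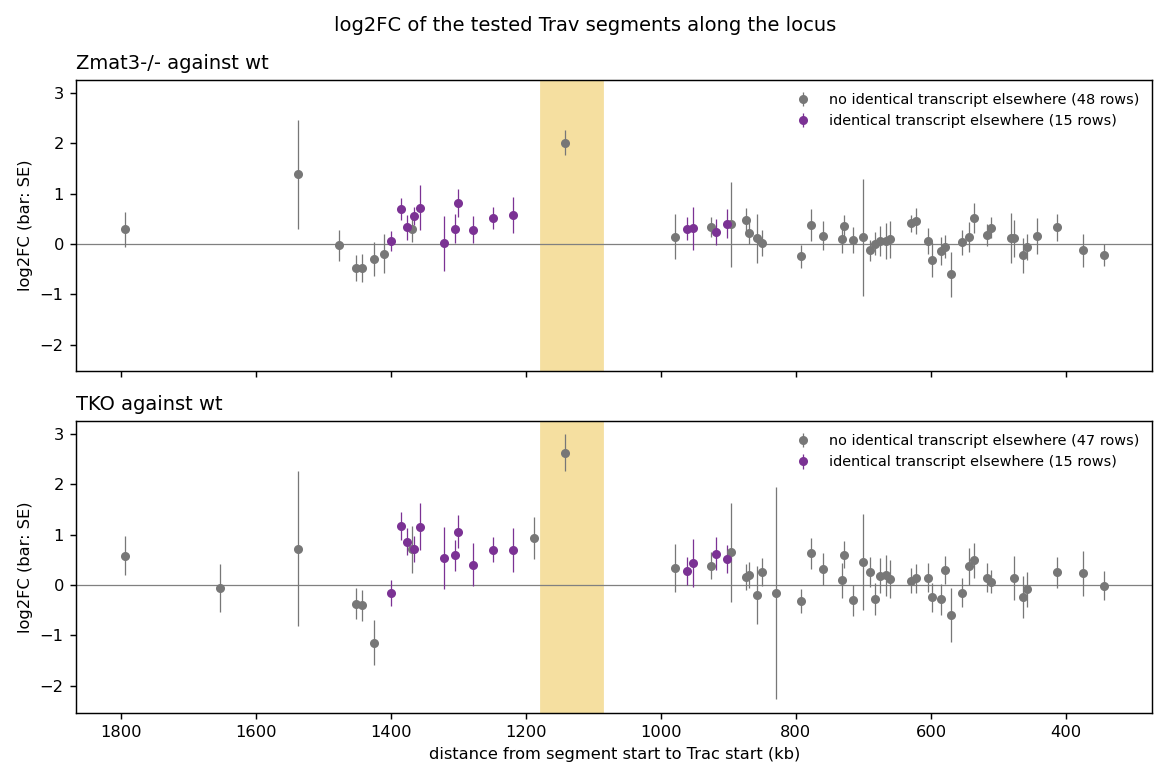
log2FC (bar is SE) of the tested Trav segments against their distance to Trac (kb) in Zmat3-/- against wt and TKO against wt; purple points are rows with an identical transcript elsewhere in the locus and the shaded band is the run from Trav8d-2 to Trav11n. Trav14d-3-dv8, at 2.01 and 2.63, is the single point inside the band, and 15 of 15 and 14 of 15 purple points lie above 0.

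By position, the median log2FC in TKO against wt was 0.59 in 16 distal members, 0.41 in 18 central and 0.14 in 28 proximal members, and in Zmat3-/- against wt 0.29, 0.32 and 0.08 in 17, 16 and 30 members. Without wt mice 1 and 2 these medians were 0.31, 0.26 and -0.05 in TKO and -0.01, 0.03 and -0.14 in Zmat3-/- against wt. Segments without a copy letter, which include the whole proximal span, summed to 63.1 to 100 CPM in wt, 77.5 to 99.6 CPM in Zmat3-/- and 85.4 to 89.7 CPM in TKO mice, and these ranges overlapped. As a share of the Trav counts they took 53.2 to 60.1% in wt mice and, without overlap, 49.9 to 52.1% in Zmat3-/- mice; the TKO mice, at 47.2 to 53.8%, overlapped both. The exchanging pairs bear on this: with both placed in the rows with the letter d the shares were 52.7 to 56.7% in wt and 46.1 to 50.4% in TKO mice, and with both in the rows with no letter 55.7 to 60.1% and 48.4 to 53.8%, so that TKO and wt did not overlap either way. Segments named dv took 10.1 ± 0.802% (SD, n = 4), 10.8 ± 1.22% (SD, n = 4) and 10.9 ± 1.01% (SD, n = 3) of Trav counts, and pseudogenes 1.47 ± 0.541%, 1.45 ± 0.341% and 1.26 ± 0.175% (SD, n = 4, 4 and 3), with overlapping groups for both.

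The genes that carry out or limit Tcra rearrangement were not called by edgeR's pairwise test, and some were called under other settings. Of a list of 26 genes (TCR constant and CD3 genes, recombinase, Dntt, the factors Tcf12, Tcf3, Myb and others, Ctcf, Rad21 and Bcl2l1), 26 were tested and none was called in any comparison by that test; at an unadjusted p under 0.05 there were 3, 2 and 0. Of all genes, 0.763%, 0.294% and 0.221% were called, and 16.1%, 10.3% and 4.49% had an unadjusted p under 0.05. The median log2FC of the list was -0.05, -0.06 and 0.03. Rag2, which with Rag1 cuts the DNA, was at 186 to 232 CPM in wt and 140 to 185 CPM in Zmat3-/- mice, with a log2FC of -0.39 (SE 0.121) and an adjusted p of 0.172 by edgeR; the adjusted p was 0.0296 by DESeq2, against 8.04% of all genes called, and 0.00771 by edgeR without wt mice 1 and 2, against 33.0%. Cd3e, a subunit of the CD3 signalling complex, had the lowest adjusted p of the list in both comparisons with wt and is named after its values were seen. It was at 446 to 557 CPM in wt, 325 to 363 CPM in Zmat3-/- and 312 to 412 CPM in TKO mice, without overlap between wt and the mutants, with log2FCs of -0.47 and -0.47 and adjusted p of 0.0966 and 0.413 by edgeR. Bcl2l1, which prolongs the life of double positive thymocytes and with it the reach to distal segments, had a log2FC of -0.26 in TKO against wt, with an adjusted p of 0.668 by edgeR, and of 0.02 without wt mice 1 and 2. Trac had a log2FC of -0.40 in Zmat3-/- against wt (adjusted p 0.407) and Rag1 one of 0.30 (adjusted p 0.71), both by edgeR. Both turned without wt mice 1 and 2, to 0.06 for Trac (adjusted p 0.536) and -0.25 for Rag1 (adjusted p 0.115), by edgeR. With 1 surrogate variable in the edgeR model, Trac (adjusted p 0.0135), Rag1 (0.0023) and Rag2 (0.00336) were called in Zmat3-/- against wt, where 37.8% of all genes were called, and Rag1 (0.0163) in TKO against wt, where 17.9% were.

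Markers of other T cell stages and cell types were set beside these values. The double negative, mature single positive, B cell, myeloid, erythroid and thymic stroma sums overlapped between wt and both mutants. B cell markers summed to 807 and 969 CPM in wt mice 1 and 2 and to 518 to 606 CPM in the other libraries. Thymic stroma markers summed to 127 and 119 CPM in wt mice 1 and 2, and to 32.7 and 54.7 CPM in wt mice 3 and 4. Erythroid markers ranged from 867 to 8694 CPM, highest in wt mouse 3. The 7 gamma-delta T cell markers summed to 212 to 296 CPM in wt, 148 to 204 CPM in Zmat3-/- and 156 to 183 CPM in TKO mice, without overlap between wt and the mutants. Taken singly, Tcrg-C1, Tcrg-C2, Tcrg-C4, Sox13 and Il17rb overlapped between wt and Zmat3-/- mice, while Trdc and Cd163l1 did not. Between wt and TKO mice, Trdc, Tcrg-C4, Sox13 and Il17rb overlapped, while Tcrg-C1, Tcrg-C2 and Cd163l1 did not. Trdc, the delta constant gene, was at 91.1 to 134 CPM in wt, 63.3 to 90.7 CPM in Zmat3-/- and 61.9 to 94.0 CPM in TKO mice. The NKT markers summed to 36.1 to 51.5, 40.8 to 43.8 and 41.2 to 59.4 CPM, and the double positive markers to 8457 to 12340, 9452 to 11530 and 10570 to 12360 CPM, with overlap in each case. The double positive sum was 8457 and 9240 CPM in wt mice 1 and 2, whose Rag1 was low. Among its members Cd8a, which encodes a chain of the CD8 coreceptor, was at 1843 to 2059 CPM in wt, 1506 to 1722 CPM in Zmat3-/- and 1588 to 1829 CPM in TKO mice, lower in every mutant mouse than in every wt mouse. Aqp11 was at 212 to 349 CPM in wt and 161 to 197 CPM in Zmat3-/- mice, also without overlap, and at 168 to 241 CPM in TKO mice. Of all genes tested, 6.91% lay lower in every Zmat3-/- mouse than in every wt mouse, and 7.02% in every TKO mouse. Mean Cd4 went the other way, at 1035, 1086 and 1130 CPM in wt, Zmat3-/- and TKO mice. So did mean Rag1, at 3553, 4368 and 4868 CPM, with its low values in wt mice 1 and 2. Both genes overlapped between wt and the mutants. The part of cell composition in the Trav values was not tested.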

How the data were processed

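RNA from thymocytes of 11 mice was sequenced as paired reads with a kit that does not mark strand. The authors used Salmon, run within nf-core/rnaseq on GRCm38.p6 and GENCODE vM25, and deposited 1 table of expected counts per gene. All deposited values were whole numbers, so rounding changed 0 values, and all 54418 identifiers matched GENCODE M21 on the same build. Salmon shares reads among similar transcripts; identical transcripts can be merged before quantification.

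Members and lists were chosen with earlier results of these data known. CPM used TMM factors over the 11 mice. The main test was edgeR 4.0.16 (quasi-likelihood, R 4.3.3, pairwise, genotype only, Benjamini-Hochberg over all genes tested). It kept genes reaching 20 counts at the depth of the smallest library in a number of mice equal to the smaller group; following the study, Xist, rRNA, chromosome Y genes and immunoglobulin genes that code for no protein were removed. DESeq2 1.42.0 was an alternative; the study used DESeq2 1.40.0 with sex and surrogate variables. Sums, ratios, shares and distances are descriptions without a test. Intervals for 0 counts (3 counts) cover counting error only. On simulated data the test was checked in each comparison. Named were the 6 highest segments per kb, the first and last that passed, Trav1 and Trav11, called members, and the 3 largest rises and falls among members whose groups did not overlap; names of the run from Trav8d-2 to Trav11n and its flanks were chosen after their values were seen. Nothing in the sources used here ties mice to litters, so p-values measure the spread between these mice. A gene of the rearrangement list is not reported here.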

Additional observations from a re-analysis of the deposited data

Results flagged for a closer look

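Of 68 groups of 4 mice examined, 2 held a mouse far from the other 3 by Dixon's test; chance gives about 1 in 20. In Zmat3-/- mouse 4, Trav1 was at 2.76 CPM against 1.33 to 1.53 CPM in the other 3 mice. In the same mouse, Trav14-1 was at 4.99 CPM against 3.93 to 4.07 CPM. TKO, with 3 mice, was not examined in this way.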

How the results depend on the processing

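The number of Trav segments called stayed at 1 in 7 of 17 alternatives in Zmat3-/- against wt and in 2 of 16 in TKO against wt, and at 0 in 14 of 15 in TKO against Zmat3-/-. Among the Trav segments named for a call or for groups that did not overlap, no log2FC changed sign in the alternatives that tested it. In Zmat3-/- against wt (1 call), there were 2 with DESeq2 (8.04% of all genes called), 0 without the filter on low counts (0.188%), 4 with 1 surrogate variable (37.8%), 0 for sums by family (0.758%) and 3 without wt mice 1 and 2 (33.0%), 1 of them higher and 2 lower, Trav15-2-dv6-2 and Trav7-6, and 0 to 1 with 1 mouse left out. With the fold limit, the 1 call became 0 without the filter and for family sums, and 0 to 1 with 1 mouse left out. In TKO against wt (1 call), there were 2 with DESeq2 (2.87% of all genes called), without the filter (0.209%) and with all 11 mice in one fit (1.63%), 3 with 1 surrogate variable (17.9%), 0 with the Xist level (0.392%) and for family sums (0.288%), and 0 with any mouse left out; with the fold limit, 2 without the filter (Trav14d-3-dv8 and Trav16d-dv11) and 0 with the Xist level, for family sums and with any mouse left out. In TKO against Zmat3-/- (0 calls), 1 was called without the filter (0.307% of all genes), with or without the fold limit, and this was Trav7-2, a row that exchanges counts with Trav7d-2. For these calls the cause was not tested. Without wt mice 1 and 2, log2FCs of other genes turned: in Zmat3-/- and TKO against wt, Trac was 0.0635 and 0.161, Rag1 was -0.246 and -0.11 and Bcl2l1 was 0.032 and 0.0203. Bcl2l1 in TKO against Zmat3-/- (-0.01) was 0.00778 without the filter and -0.145 to 0.0855 with 1 mouse left out.

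With the replicate block, 0 segments were called in all 3 comparisons (0.0889%, 0.121% and 0.16% of all genes). Same-numbered mice correlated at 0.0857 to 0.324 in Zmat3-/- against wt, 0.0706 to 0.386 in TKO against wt and -0.00293 to 0.165 in TKO against Zmat3-/-, so the numbers were not taken as pairs, and not every mouse correlated best with its own number. Numbers 1 and 2 were high-Xist and numbers 3 and 4 low-Xist mice in wt and Zmat3-/-; between these genotypes, correlations were 0.0857 to 0.337 within the same Xist class and -0.351 to -0.126 across classes. Low-Xist TKO mouse 2, by contrast, correlated at 0.243 and 0.283 with high-Xist wt mice 1 and 2 and at -0.299 and -0.216 with low-Xist wt mice 3 and 4. The block moved no sum, share or distance by more than the spread between mice.

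Alternatives chosen after seeing the data moved some descriptions by more than that spread. The log2 Trav level per Trac was -0.0538 in Zmat3-/- against wt without wt mice 1 and 2; in TKO against wt it was -0.0725 without them, 1.23 in high-Xist and -0.12 in low-Xist mice; in TKO against Zmat3-/- it was 0.16 and -0.15 in those mice. In high-Xist mice, with 1 TKO mouse, TKO against Zmat3-/- gave 0.24 for the summed level (log2), -4.67 percentage points for the proximal share and 28.4 kb for the mean distance. The proximal share in TKO against wt was -2.85 percentage points without rows with an identical transcript elsewhere, and lay between -6.89 and -2.85 over the alternatives that left out no mouse in turn. With 1 mouse left out, it lay between -6.36 and -4.42. Of the 11 segments of the run from Trav8d-2 to Trav11n, 10 did not pass the filter on low counts in any comparison; without the filter Trav16d-dv11 was called in TKO against wt, with an adjusted p of 0.0312 by edgeR.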
